A study of Mus musculus with 41 samples.

Results

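Inflammatory monocytes were compared between irradiated and untreated tumours, over every gene of the table that the authors deposited for this subset. The comparison covers 14 of the 41 libraries of the series, chosen by their labelled cell type and treatment, and lists 55453 genes, of which 14506 had an adjusted p-value and count here as tested. Tumours came from MC38-luc, a luciferase-bearing mouse colon adenocarcinoma line placed in the rectum of female C57BL6 mice, whose age was not given in the sources used here. In the irradiated group, 9 libraries came from tumours given 5 fractions of 5 Gy, 1 a day from day 9 to day 13 of growth, and in the untreated group 5 libraries came from tumours that were not irradiated. All tumours were harvested on day 14, which is 1 day after the last fraction, and monocytes were sorted as CD45+ CD11b+ Ly6C+ Ly6G- cells. The 14 libraries carry 14 tumour numbers, so each stands for a separate tumour, and macrophages of the same 14 tumours and granulocytes of 11 of them were sequenced beside them. Single libraries had no values to analyse here, so the depth, the level in each group and the spread between tumours are unknown.

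Inflammatory monocytes leave the bone marrow through the chemokine receptor CCR2, enter tumours from the blood and can mature there into macrophages. As they mature they lose Ly6C and gain F4/80, complement C1q and receptors that bind dying cells. Ionising radiation breaks DNA, which activates p53, and DNA that reaches the cytosol can start a type I interferon response.

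Each gene had a mean normalised count, a log2 fold change, a Wald statistic and an adjusted p-value in the authors' deposited table. The mean is the same in the tables of all subsets and so describes no single subset. The fold change is the log2 ratio of irradiated to untreated and was read as shrunken towards 0, and the Wald statistic is an effect divided by its standard error. Here a gene rose when its adjusted p was under 0.05 with a positive Wald statistic, and fell when the statistic was negative. By this rule the authors' deposited table calls 856 genes (5.9% of those tested), of which 599 rose (4.13%) and 257 fell (1.77%). The median log2 fold change was 0.02 over all tested genes, 0.97 over genes that rose and -0.68 over genes that fell. A log2 fold change of at least 1 was held by 292 of the genes that rose, and 68 genes that fell had -1 or less. Deposited values just inside and outside the threshold were adjusted p = 0.04998 and 0.05003.

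The sort itself could not be checked, because the level of a marker in each group is unknown and a contrast between groups does not show it. None of the 3 markers given for this subset was called between the groups. The authors' deposited table puts Ly6c2, a gene of the Ly6C antigen used in the sort, at 0.84 on the log2 scale (Wald statistic 2.48, adjusted p = 0.123). Per the authors' deposited table Ccr2 had -0.33 (Wald statistic -1.25, adjusted p = 0.528) and Chil3, a chitinase-like secreted protein gene, 1.48 (Wald statistic 1.93, adjusted p = 0.265). Of 13 tested classical monocyte markers 0 rose and 0 fell in inflammatory monocytes, where 4.13% of all tested genes rose and 1.77% fell. Their median log2 fold change was 0.20. Among 12 non-classical monocyte markers 1 fell, Treml4, at -0.85 on the log2 scale in the authors' deposited table.

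The genes with the smallest adjusted p did not have the largest folds, as the plot of fold against Wald statistic shows. Stfa1, a stefin gene of a cluster expressed in neutrophils, led the genes that rose, at 0.66 on the log2 scale and a Wald statistic of 11.01 in the authors' deposited table. The authors' deposited table gives a fold near 0 beside a large statistic for Mrgpra2b (0.05, Wald statistic 9.91), the granule protein gene Olfm4 (0.11, 9.31) and the acute-phase gene Saa1 (0.11, 8.72). In 3 called genes the sign differed, and the authors' deposited table lists them as Ankrd22 (-0.18, Wald statistic 3.01), Ighg1 (-0.06, 3.35) and Ighg3 (-0.25, 5.20). The direction of these 3, which lie outside the naming rule, is therefore uncertain. Of the 856 called genes, 7 had an absolute log2 fold change under 0.2. Leaving out predicted genes and any whose mean count was under 50, the largest folds of genes that rose were 3.21 for Mmp27, a matrix metalloproteinase gene, 3.16 for Tnfsf4, which encodes OX40 ligand, and 3.15 for Rhcg, an ammonium transporter gene, in the authors' deposited table. By the same limits the largest among genes that fell were -2.67 for the terminal complement gene C6, -2.54 for the adhesion molecule gene Cadm1 and -2.04 for the heat shock gene Hspa1b, again from the authors' deposited table.

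**Figure D1:**
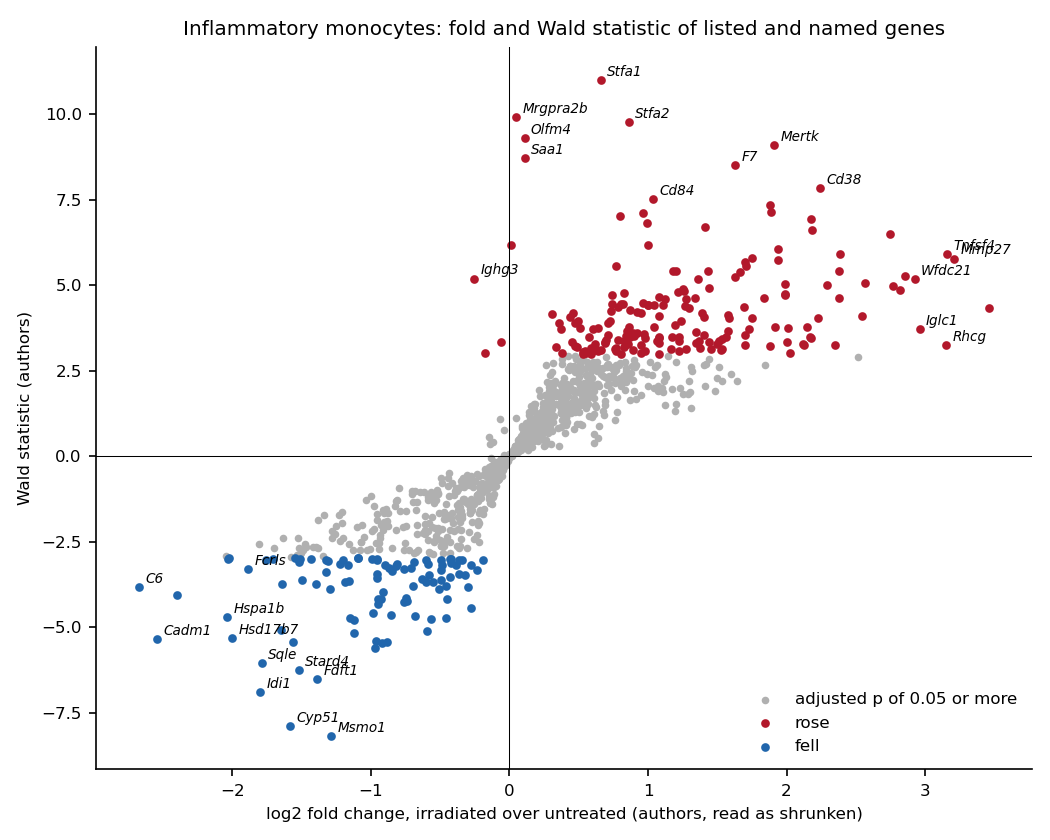
Log2 fold change of irradiated over untreated inflammatory monocytes (x axis) against the Wald statistic (y axis), both from the authors' deposited table, for genes of the lists and the named genes; each point is 1 gene, coloured by direction where the adjusted p was under 0.05. Msmo1 and Cyp51 lie lowest, and Stfa1, Mrgpra2b and Stfa2 lie highest with folds under 1.

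Markers of other cells moved with irradiation in the same libraries. Of 15 tested neutrophil markers 7 rose and 0 fell (median log2 fold change 0.95), against 4.13% of all tested genes that rose. Ly6g, which encodes the antigen that the gate excludes, was 1 of the 7 (0.95, adjusted p = 0.0447), and the authors' deposited table gives 2.57 for Retnlg, 2.77 for S100a8 and 2.38 for the chemokine receptor gene Cxcr2. Ly6g lies outside the naming rule and was chosen after its value was seen. Of 13 granule genes 4 rose, and the authors' deposited table gives 1.75 for Lcn2 and 2.35 for Ltf, which encodes lactoferrin. The bars of marker genes also show eosinophil markers, of which 2 of 7 rose, with 2.82 for Prg2 (major basic protein) and 1.88 for Ccr3 (the eotaxin receptor) in the authors' deposited table. Of 11 B and plasma cell markers 3 rose, which the authors' deposited table gives as 2.96 for Iglc1, 2.17 for Cd79a and 2.12 for Ighd. None passed in either direction among 14 T and NK cell, 11 epithelial and tumour cell, 11 fibroblast and endothelial, and 2 mast cell and basophil markers. Of 13 dendritic cell markers 1 rose, Bst2, which is also an interferon response gene. These lists are not independent of monocyte expression, since S100a8, S100a9 and Lcn2 are made by monocytes too. Their summed level in each group was not analysed here, and the part of these cells in the results that follow was not tested. In sorted bulk samples, more cells of a type and more RNA per cell cannot be told apart.

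**Figure D2:**
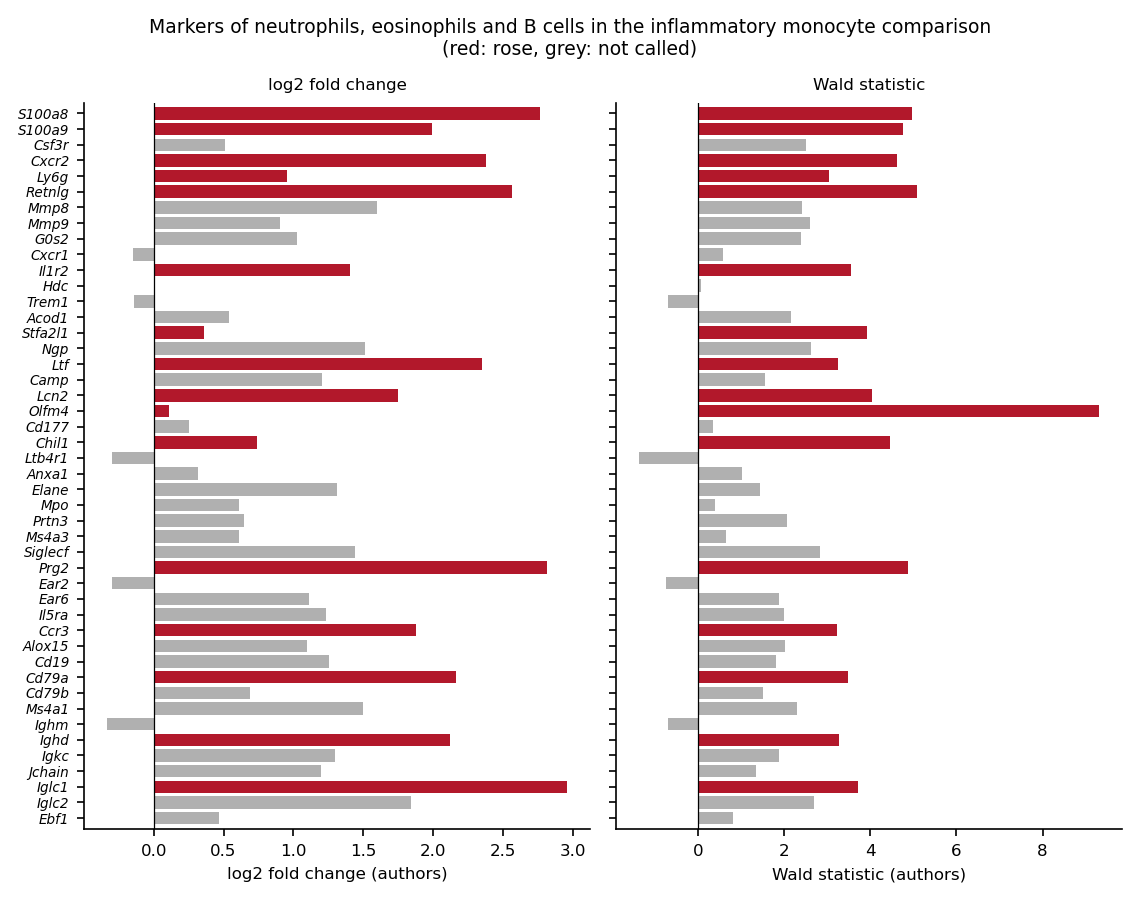
Log2 fold change (left) and Wald statistic (right) of neutrophil, granule, eosinophil, and B and plasma cell markers in inflammatory monocytes, from the authors' deposited table; each bar is 1 gene, red where it rose and grey where it was not called. Neutrophil genes such as S100a8 (2.77) and Retnlg (2.57) rose, while Trem1, Hdc and Cxcr1 lie near 0.

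Macrophage genes were the monocyte-lineage group in which most members rose. Of 16 macrophage identity genes 9 rose and 0 fell, where 4.13% of all tested genes rose. Their median log2 fold change was 0.66, against 0.02 over all tested genes. The authors' deposited table gives 1.36 for Ms4a7 (adjusted p = 5.12e-05), 0.74 for Adgre1, which encodes F4/80, and 0.87 for Lgmn, a lysosomal protease gene. The 3 chains of complement C1q were close together, at 1.26 for C1qa, 1.08 for C1qb and 1.11 for C1qc in the authors' deposited table. Macrophage genes that were not called included Csf1r (0.05) and Cd68 (-0.04) in the authors' deposited table, and these were named after their values were seen. In macrophages sorted from the same tumours the C1q genes were not called, with log2 fold changes of -0.08, -0.01 and -0.19 for C1qa, C1qb and C1qc in the authors' deposited table. Whether these effects differ between the subsets could not be tested from shrunken folds.

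Genes typical of tissue-resident macrophages rose in 3 of 14 cases and fell in 0, where 4.13% of all tested genes rose. The median log2 fold change was 0.32, and 5 of the 14 had a negative Wald statistic. Vsig4, counted with the complement genes below, fell. The authors' deposited table gives 2.18 for Folr2, a folate receptor gene (adjusted p = 3.48e-09), 1.44 for Pf4, a platelet-type chemokine gene, and 0.59 for Selenop, a selenium carrier gene. Of 15 genes of lipid-associated tumour macrophages 5 rose and 0 fell (median log2 fold change 0.60). Per the authors' deposited table these were the lipid carrier gene Apoe (1.27), the cathepsin genes Ctsl (0.80) and Ctsb (0.48), the lipid receptor gene Trem2 (0.77) and Arg1 (0.62), which encodes arginase. Of 25 monocyte and macrophage transcription factor genes 2 rose. They were the MITF-family gene Tfec (0.95) and Nr1h3 (0.98), which encodes the oxysterol receptor LXR alpha, in the authors' deposited table.

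Receptors for dying cells were led by Mertk, a receptor kinase that binds phosphatidylserine through bridging proteins. It rose by 1.91 on the log2 scale (Wald statistic 9.09, adjusted p = 2.84e-16), beside 1.14 in tumour-associated macrophages and 1.58 in granulocytes, in the authors' deposited tables. The related receptor genes were not called, with 0.43 for Axl and -1.23 for Tyro3 in the authors' deposited table (named after their values were seen). The whole group of 21 clearance genes had a median log2 fold change of 0.05. Of them 3 rose and 0 fell, where 4.13% of all tested genes rose. The other 2 in the authors' deposited table were the scavenger receptor gene Scarf1 (1.08) and Adgrb1 (2.03), which encodes the phosphatidylserine receptor BAI1. Adgrb1 had a low mean count (14.8) and lay near the threshold (Wald statistic 3.025, adjusted p = 0.0456).

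Among 22 complement genes 6 rose and 1 fell, where 4.13% of all tested genes rose and 1.77% fell. Beyond C1q, the authors' deposited table gives 1.43 for Cfb, factor B of the alternative pathway (adjusted p = 1.86e-05), 0.46 for the regulator gene Cr1l and 1.53 for Cd59a, which encodes an inhibitor of the membrane attack complex. The member that fell, named after its value was seen, was Vsig4, a complement receptor gene of resident macrophages, at -2.03 in the authors' deposited table, and it has the largest adjusted p (0.04998) among all called genes. Of 10 Fc receptor genes, Fcgr4 rose (0.82) and Fcrls, an Fc receptor-like scavenger receptor gene, fell (-1.89) in the authors' deposited table. MS4A genes, which encode membrane proteins with 4 spans, rose in 5 of 12 cases and fell in 0, and all 12 had a positive Wald statistic (median log2 fold change 0.83). The authors' deposited table gives 1.99 for Ms4a14, 1.37 for Ms4a4b, 0.69 for Ms4a4a and 0.61 for Ms4a6d. Members of this cluster resemble each other in sequence, so how reads were shared between them is uncertain.

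Of 23 SLAM and paired inhibitory receptor genes 6 rose and 1 fell, where 4.13% of all tested genes rose and 1.77% fell. The authors' deposited table gives Cd84, a SLAM receptor gene, 1.04 (Wald statistic 7.53, adjusted p = 6.84e-11), Slamf6 1.25, Slamf7 0.92 and Slamf9 0.82. Cd244a, which encodes the SLAM receptor 2B4, went the other way, at -0.97 (Wald statistic -5.61) in the authors' deposited table. Sirpa, which encodes the receptor for CD47, rose by 0.50, and its ligand gene Cd47 by 0.60, in the authors' deposited table. TREM genes were split, as 3 of 7 rose and 1 fell.

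Genes that handle extracellular nucleotides and NAD rose in 5 of 22 cases and fell in 0. In the authors' deposited table Cd38, an ectoenzyme that consumes NAD, reached 2.24 on the log2 scale (Wald statistic 7.85, adjusted p = 6.16e-12). Receptors for nucleotides and UDP-sugars rose with it, at 1.89 for P2ry14, 0.97 for P2rx4, 0.73 for P2rx7 and 0.87 for P2ry13 in the authors' deposited table. Of these receptors, P2rx7 and P2ry13 were not called in tumour-associated macrophages (0.13 and -0.21) or granulocytes (0.19 and 0.31) in the authors' deposited tables. The ecto-nucleotidase genes Entpd1 (-0.21) and Nt5e (-0.44), which degrade ATP to adenosine, were not called in the authors' deposited table and were named after their values were seen. Among 20 coagulation genes 1 rose, F7, which encodes coagulation factor VII (1.63, adjusted p = 3.66e-14), and 2 fell, Anxa2 (-0.58) and Thbd (-0.90), which encodes thrombomodulin, in the authors' deposited table. Over all tested genes 4.13% rose, near the share of this list that rose, and 1.77% fell.

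Along most of the pathway of cholesterol synthesis, genes fell. Of 21 tested members 13 fell and 0 rose (median log2 fold change -0.86), where 1.77% of all tested genes fell. At the entry, the authors' deposited table gives -0.69 for Acat2 and -1.12 for Hmgcs1, which encodes HMG-CoA synthase. In the isoprenoid part it gives -1.80 for Idi1, -1.65 for Fdps and -1.39 for Fdft1, whereas Mvk (0.02), Pmvk (-0.49) and Mvd (-0.07), the genes of the steps from mevalonate, were not called in the authors' deposited table. In the sterol part, Sqle, which encodes squalene epoxidase, had -1.79, Lss -1.30, Cyp51 -1.58, Msmo1 -1.29, Hsd17b7 -2.00 and Sc5d -0.85 in the authors' deposited table. The sterol reductase gene Tm7sf2 (0.68) and the genes Nsdhl (-0.29), Ebp (-0.08) and Dhcr7 (-0.62) were not called in the authors' deposited table. Most of the pathway is given here, so members beyond the naming rule were chosen with their values known. Over the whole list, the authors' deposited tables call 15 of the 21 as lower in tumour-associated macrophages and 7 as lower and 2 as higher in granulocytes.

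The transcription factor that drives these genes, SREBP2, binds a sterol response element, and its own gene and its regulators were measured too. Of 13 tested SREBP and sterol uptake genes 5 fell and 2 rose, where 1.77% of all tested genes fell and 4.13% rose. The authors' deposited table gives -0.92 for Srebf2, -0.43 for Srebf1, -0.70 for Insig1, which retains SREBP in the endoplasmic reticulum, and -1.52 for Stard4, a cholesterol carrier gene. Those that rose were Mylip (0.86), which encodes a ubiquitin ligase, and the lysosomal cholesterol carrier gene Npc2 (0.49, named after its value was seen) in the authors' deposited table.

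Promoters of RefSeq (build GRCm38.p6, an earlier build than that of the tables) were searched on both strands from 250 bases before to 50 bases after the gene's start. They were matched by symbol for 10446 of the 14506 tested genes. The sterol response element spelled TCACCCCAC was found in 1 of the 8 called cholesterol genes with an entry, Hmgcs1, and in 0.641% of the matched genes. With 1 mismatch allowed it was found in 3 of 8 (Acat2, Hmgcs1 and Hsd17b7), against 12.4%. The 150 bases before the start of Hmgcs1 are shown because they hold the exact match, in capitals, which begins 137 bases before the start.
Hmgcs1 (chr13:119690201-119690350, plus strand): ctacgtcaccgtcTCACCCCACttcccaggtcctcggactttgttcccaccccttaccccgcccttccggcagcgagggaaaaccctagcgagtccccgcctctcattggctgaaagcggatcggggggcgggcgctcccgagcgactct
A match describes letters only, and binding was not measured.

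**Figure D3:**
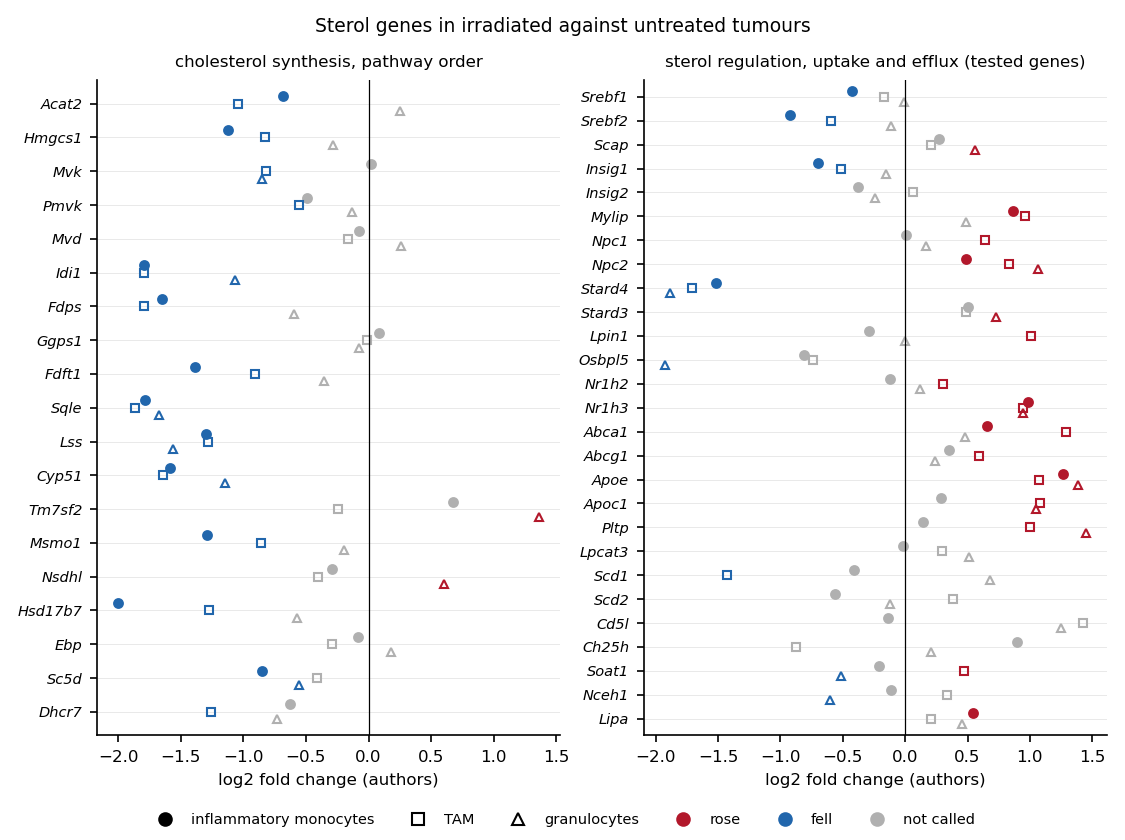
Log2 fold change of most cholesterol synthesis genes in pathway order (left) and of most tested genes of sterol regulation, uptake and efflux (right), from the authors' deposited tables; each symbol is 1 gene in 1 subset (circle, inflammatory monocytes; square, tumour-associated macrophages; triangle, granulocytes), coloured where the adjusted p was under 0.05. In monocytes every coloured synthesis gene drawn lies left of 0, while Apoe, Nr1h3 and Abca1 lie to the right.

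Called genes of cholesterol efflux and of the lysosome rose, where 4.13% of all tested genes rose. Of 16 LXR targets and efflux genes 5 rose and 0 fell, which in the authors' deposited table were Apoe, Mylip, Nr1h3, the exporter gene Abca1 (0.66) and the lysosomal lipase gene Lipa (0.55). The second exporter gene, Abcg1 (0.35, adjusted p = 0.292), was not called in the authors' deposited table and was named after its value was seen. Lysosomal genes rose in 14 of 36 cases and fell in 0, and 33 of the 36 had a positive Wald statistic (median log2 fold change 0.33). The authors' deposited table gives 0.82 for Grn, which encodes progranulin, 0.31 for the membrane protein gene Lamp1 and 0.44 for the peptidase gene Tpp1. Dnase2a, the nuclease that digests DNA of engulfed cells, rose by 0.80 (Wald statistic 7.04) in the authors' deposited table.

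In each of the fatty acid lists 2 members were called, a larger share than among all tested genes. Of 13 synthesis and desaturation genes 2 fell and 0 rose, where 1.77% of all tested genes fell, and all 13 had a negative Wald statistic (median log2 fold change -0.49). These were Fasn, which encodes fatty acid synthase (-1.10), and Aacs (-0.49), which activates acetoacetate, in the authors' deposited table. Of 20 uptake and lipid droplet genes 2 rose, where 4.13% of all tested genes rose, the transporter gene Slc27a1 (1.41, adjusted p = 1.53e-08) and Cpt1a (0.99, adjusted p = 7.06e-09), which admits fatty acids to mitochondria, in the authors' deposited table.

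Targets of p53 rose in 9 of 37 cases and fell in 0 (median log2 fold change 0.53), against 4.13% of all tested genes that rose. The authors' deposited table gives 2.75 for Phlda3, an inhibitor of AKT (adjusted p = 5.22e-08), 1.63 for Trp53inp1, 1.34 for Bbc3, which encodes the cell death inducer PUMA, 1.20 for the cyclin G1 gene Ccng1 and 1.12 for Dcxr. Not called were Cdkn1a, which encodes the cell cycle inhibitor p21, with 0.36 (adjusted p = 0.437) and Mdm2, with 0.18 (adjusted p = 0.638), in the authors' deposited table (named after their values were seen). In tumour-associated macrophages of the same tumours, the authors' deposited table calls 26 of the 37 as higher and 3 as lower, with 2.38 for Cdkn1a. Over all genes tested in tumour-associated macrophages, 13.9% rose and 12.5% fell. A difference between the subsets was not tested. Of 17 BCL2 family genes 2 rose, Bbc3 and Bcl2a1a (0.81), a survival gene with near-identical copies, in the authors' deposited table. Of 34 DNA repair genes 0 rose and 0 fell, and the authors' deposited table gives -0.22 for Parp1.

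Called genes of the cell cycle all fell. In inflammatory monocytes 7 of 39 S phase genes and 7 of 30 mitosis genes fell and 0 rose. All 30 mitosis genes had a negative Wald statistic, with a median log2 fold change of -1.30. The authors' deposited table gives -1.40 for Uhrf1, which maintains DNA methylation, -0.74 for the polymerase subunit gene Pold2, -0.96 for the helicase gene Mcm5 and -0.95 for the centromere histone gene Cenpa. Of the 7 called mitosis genes several lay just inside the threshold, at adjusted p = 0.0472 for Tpx2, 0.0469 for Hmmr and 0.0472 for Cdca8 in the authors' deposited table. The authors' deposited tables call 38 and 30 of these as lower in tumour-associated macrophages, and 24 and 27 in granulocytes. Over all tested genes, 1.77% fell in monocytes, 12.5% in tumour-associated macrophages and 9.9% in granulocytes.

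Type I interferon response genes rose in 18 of 52 cases and fell in 0, and 51 of the 52 had a positive Wald statistic (median log2 fold change 0.77). The authors' deposited table gives 1.39 for Oasl1, a translation regulator gene of the OAS family (adjusted p = 0.00207), 1.24 for Oas1g, 1.58 for Ifi44 and 1.40 for Irf7, the regulator that amplifies interferon. Slfn4 had 2.15, and Bst2, which encodes the virus tether tetherin, 1.04, in the authors' deposited table. Siglec1 and Ddx60, interferon-inducible genes outside the list, rose by 1.94 and 1.75 in the authors' deposited table. In the IFI200 family of DNA-binding proteins 3 of 12 genes rose, with 1.58 for Ifi208, 1.92 for Ifi214 and 1.08 for Ifi206 in the authors' deposited table. Of 17 interferon-inducible GTPase genes 3 rose, with 1.73 for Gbp11, 0.97 for Iigp1 and 1.06 for Gbp6 in the authors' deposited table. Several of these families are runs of similar genes, so the division of reads among members is uncertain. Of 20 nucleic acid sensing genes only Tlr3, the receptor for double-stranded RNA, rose (1.08) in the authors' deposited table. This share is near the 4.13% of all tested genes that rose, and 17 of the 20 had a positive Wald statistic. Cgas (0.23) and Tmem173 (0.12), which encodes STING, were not called in the authors' deposited table and were named after their values were seen.

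The interferon-stimulated response element is bound by the STAT and IRF factors of this pathway. Its core, spelled GAAANNGAA, was found in the promoters of 8 of the 14 called interferon genes with a RefSeq entry and of 22 of 38 tested ones, against 9.30% of the 10446 matched genes. Overlapping matches were kept. The 3 matched promoters with the smallest p are printed from 150 bases before the start to the start or to the end of the last match, with the matches in capitals, to show how near the start they lie. The first match begins 3 bases before the start in Ifi44, 18 in Oas1g and 130 in Bst2.
Ifi44 (chr3:151749905-151750060, minus strand): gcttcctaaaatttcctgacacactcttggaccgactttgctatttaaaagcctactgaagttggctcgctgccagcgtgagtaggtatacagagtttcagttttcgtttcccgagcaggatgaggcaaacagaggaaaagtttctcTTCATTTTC
Oas1g (chr5:120887614-120887763, minus strand): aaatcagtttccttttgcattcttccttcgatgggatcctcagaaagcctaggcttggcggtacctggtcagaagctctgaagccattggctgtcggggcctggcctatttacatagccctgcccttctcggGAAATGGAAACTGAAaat
Bst2 (chr8:71537473-71537622, minus strand): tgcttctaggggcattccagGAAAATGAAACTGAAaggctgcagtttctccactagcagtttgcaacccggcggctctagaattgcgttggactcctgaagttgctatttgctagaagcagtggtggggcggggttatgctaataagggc
Ifi44 holds the core on the opposite strand, and Oas1g and Bst2 each hold 2 overlapping copies.

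Of 24 MHC class I and peptide loading genes 8 rose and 0 fell (median log2 fold change 0.44), where 4.13% of all tested genes rose. The authors' deposited table gives the class Ib genes H2-Q6 2.18 (adjusted p = 2.56e-08) and H2-Q7 1.71, and the classical genes H2-K1 0.73 and H2-D1 0.51. Class I genes are alike in sequence, so their separate values are uncertain. Of 12 MHC class II presentation genes 1 rose, the protease gene Ctss (0.56), in the authors' deposited table. Among 19 checkpoint and costimulatory genes 5 rose and 0 fell. These were Tnfsf4, Sirpa, Cd47, Pdcd1lg2 (1.70), which encodes PD-L2, and Lgals9 (0.59), which encodes galectin 9, in the authors' deposited table. Cd274, which encodes PD-L1, had 0.29 (adjusted p = 0.498) in the authors' deposited table and was named after its value was seen.

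**Figure D4:**
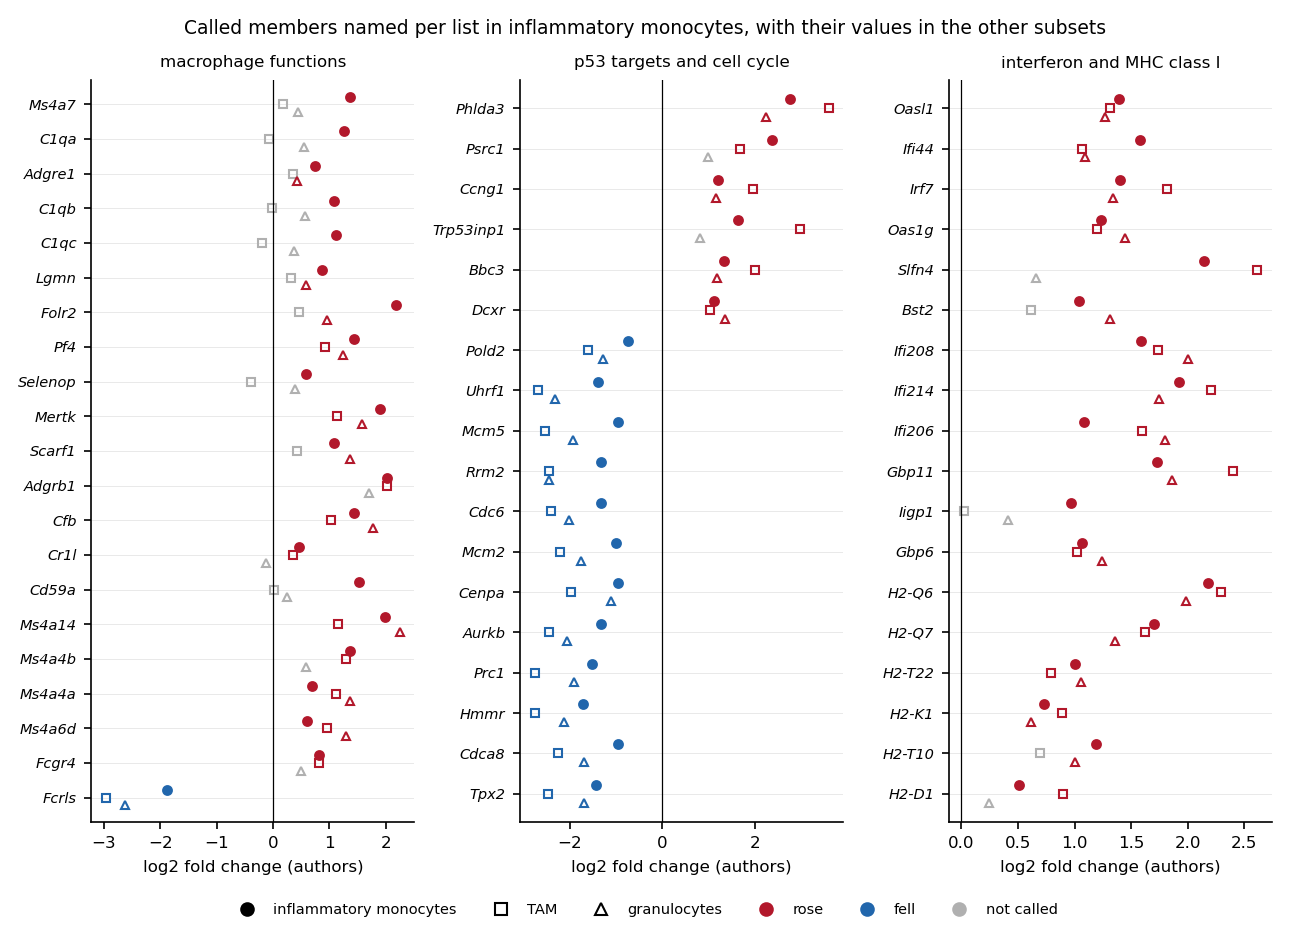
Log2 fold change of called genes of macrophage functions, p53 and cell cycle, and interferon and MHC class I in inflammatory monocytes (circles), with their values in tumour-associated macrophages (squares) and granulocytes (triangles), from the authors' deposited tables; colour marks an adjusted p under 0.05. The C1q genes are coloured only as circles, while the cell cycle genes are coloured in all subsets.

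Most genes of inflammatory mediators were not called, though some rose in each of these lists, where 4.13% of all tested genes rose. Of 24 cytokine and enzyme genes 4 rose and 0 fell, and the authors' deposited table gives 2.54 for Il12a, 1.56 for Csf3, which encodes granulocyte colony-stimulating factor, and 1.05 for the cyclooxygenase gene Ptgs1. Il1b (-0.09) and Ptgs2 (-0.69) were not called in the authors' deposited table and were named after their values were seen. Of 25 chemokine ligand genes 5 rose, Pf4, Ccl5 (1.70), Cxcl16 (0.90), Ccl17 (2.12) and Ccl8 (1.53), in the authors' deposited table. Of 23 chemoattractant receptor genes 4 rose, among them the formyl peptide receptor gene Fpr1 (2.29) and Ccrl2 (0.97) in the authors' deposited table, and both others, Cxcr2 and Ccr3, are also granulocyte markers. Of 25 integrin and adhesion genes, Itga9 (1.30) and Jaml (1.67) rose and Cadm1 fell in the authors' deposited table. Matrix genes that rose were Mmp13 (1.69) and Mmp14 (0.71), 2 of 22, in the authors' deposited table.

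In the lists for acute activation, 0 to 2 members rose and 0 fell, where 4.13% of all tested genes rose. The NF-kB and immediate early lists lay above that share. Of 24 Toll-like receptor and inflammasome genes 0 rose and 0 fell, although 21 had a positive Wald statistic. The authors' deposited table gives -0.18 for Cd14, the lipopolysaccharide co-receptor gene. Of 18 NF-kB genes 2 rose, the kinase gene Ikbke (0.77, adjusted p = 9.93e-06) and Nfkbid (0.64), and of 28 immediate early genes 2 rose, Fosb (Wald statistic 4.61) and Klf2 (log2 fold change 0.77), in the authors' deposited table. In tumour-associated macrophages the authors' deposited table calls 15 and 23 members of these last lists as higher. Over all genes tested there, 13.9% rose.

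Called genes of the glycolysis, heat shock and integrated stress response lists fell, where 1.77% of all tested genes fell and 4.13% rose. Of 32 hypoxia and glycolysis genes 6 fell and 0 rose, and 29 had a negative Wald statistic (median log2 fold change -0.27). The authors' deposited table gives -1.15 for the oxygen sensor gene Egln3 (adjusted p = 0.000316), -0.99 for Ndrg1, -0.76 for the glucose transporter gene Slc2a1, -0.55 for hexokinase Hk1, -0.63 for Pfkp and -0.32 for Pgk1. In tumour-associated macrophages 12 members of this list rose and 0 fell, with 0.59 for Egln3, 0.44 for Slc2a1 and 0.36 for Hk1 in the authors' deposited table. In granulocytes 0 rose and 8 fell, and the authors' deposited table gives -0.79 for Egln3 and -0.92 for Slc2a1. Among all genes tested, 13.9% rose and 12.5% fell in tumour-associated macrophages, and 7.32% rose and 9.9% fell in granulocytes. Of 17 heat shock genes 2 fell, the near-identical pair Hspa1b (-2.04) and Hspa1a (-1.49), in the authors' deposited table. Of 23 integrated stress response genes 5 fell and 0 rose, which in the authors' deposited table were Asns (-1.64), for asparagine synthesis, Psat1 (-1.22) and Shmt2 (-0.82), for serine and glycine, Mthfd2 (-0.74) and the tRNA ligase gene Sars (-0.51). Haem oxygenase 1, Hmox1, fell by 1.16 and biliverdin reductase Blvrb rose by 0.53 on the log2 scale in the authors' deposited table. Of 15 housekeeping genes 1 rose, B2m (0.47), and 2 fell, Pgk1 (-0.32) and Rplp0 (-0.34), in the authors' deposited table, and of 8 mitochondrially encoded genes 0 were called.

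**Figure D5:**
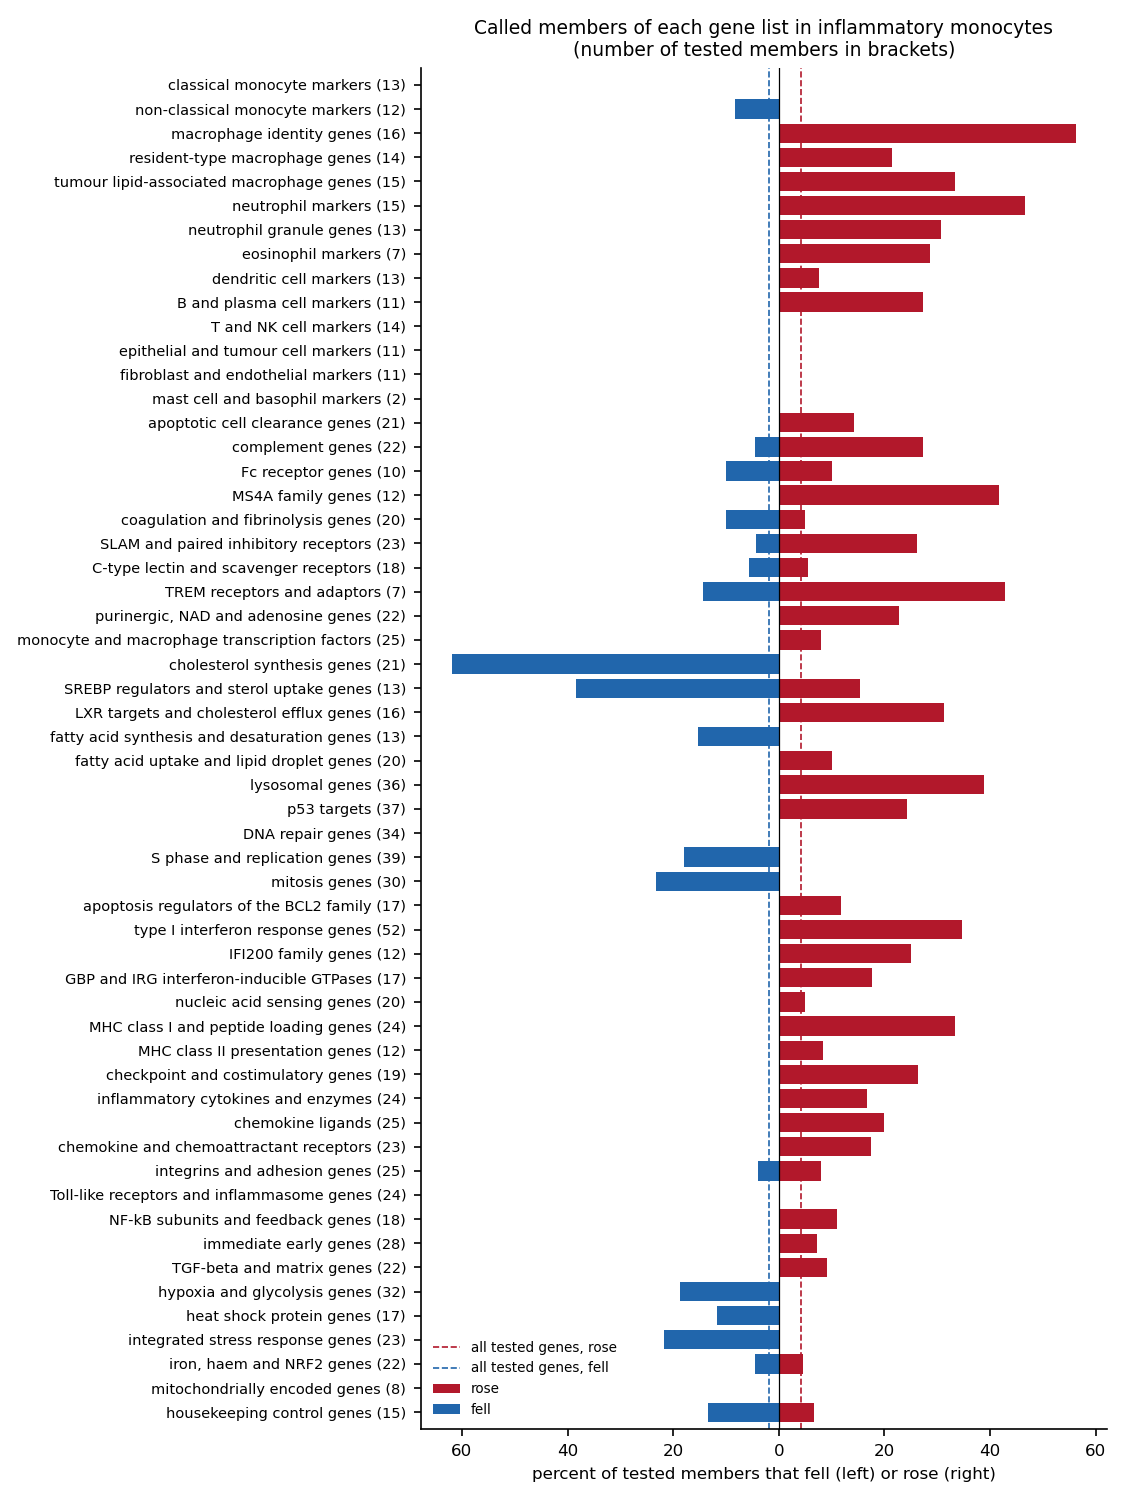
Percent of the tested members of each list that fell (left, blue) or rose (right, red) in inflammatory monocytes by the authors' deposited table, with the number tested in brackets; dashed lines mark the 4.13% and 1.77% of all tested genes that rose and fell. Cholesterol synthesis reaches furthest to the left (13 of 21) and macrophage identity furthest to the right (9 of 16).

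The calls were set beside those of the other subsets, which come from the same tumours and so are not independent. The authors' deposited tables call 13.9% of tested genes as higher and 12.5% as lower in tumour-associated macrophages, and 7.32% and 9.9% in granulocytes. Of the 599 genes that rose in monocytes, 347 also rose in tumour-associated macrophages, 57.9% of the monocyte list and 14.8% of the macrophage list. Of the 257 that fell, 156 also fell there, 60.7% of the first list and 7.40% of the second. With granulocytes 266 genes that rose were shared (44.4% and 23.2%) and 127 that fell (49.4% and 8.18%). All 3 subsets shared 182 genes that rose and 100 that fell.

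Of the genes that rose in monocytes, 7 fell in tumour-associated macrophages and 1 fell in granulocytes, and of those that fell, 14 and 2 rose there. Opposite effects were tested by the larger of both p-values for genes whose Wald statistics differ in sign, with Benjamini-Hochberg adjustment over 14506 genes. None passed at an adjusted p under 0.05 in either comparison (0% and 0% of genes), and 132 and 66 genes had an unadjusted p under 0.05. The smallest adjusted p was 0.535, for Gpat3, a triglyceride synthesis gene, with -0.95 in monocytes (Wald statistic -4.30) and 0.88 in tumour-associated macrophages (Wald statistic 4.13) in the authors' deposited tables. Next came Hmgn2 (0.64 and -0.80), Gramd4 (-0.76 and 0.85) and Thbd (-0.90 and 1.00) in the authors' deposited tables. With granulocytes the smallest p belonged to Rps6ka3, a kinase gene (-0.56 and 0.67, adjusted p = 1), in the authors' deposited tables. An opposite direction was thus not detectable for single genes by this test. The test is strict, since it takes the larger p and keeps genes of agreeing sign in the adjustment, so opposite effects are not excluded.

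Irradiated and untreated libraries differ in tumour number, and no other batch is given in the labels, so effects of single tumours could not be examined. After division of all Wald statistics by their robust SD of 1.56, 20 genes rose and 5 fell.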

How the data were processed

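RNA of sorted cells was made into Nextera XT libraries from picogram amounts of cDNA, per the labels' protocols. Per the submitters' processing notes, fastp 0.20.1, STAR 2.7.6a, DESeq2 1.28.1, R 4.0.2 and the build mm39 (GRCm39) were used. How reads were counted, by strand or not, and with which annotation is not given in the sources used here. Mean normalised counts are a signal that the authors averaged, identical in all 3 tables for 55453 genes. The log2 fold changes were deposited by the authors and read as shrunken. Wald statistics are a score the authors deposited, and their deposited p-values differ from its two-sided normal p by at most 0.00211 in log10. Adjusted p-values of the authors equal Benjamini-Hochberg values over the 14506 tested genes, whose lowest mean was 6.33.

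Calls, list counts, overlaps and the test of opposite directions were computed here with Python 3.11.15, pandas 2.3.3, numpy 2.4.6 and scipy 1.17.1. No list was tested. A few list members count in their lists but are not reported here by name. The 56 lists, the members and the rules were chosen with earlier results of these data known. Named genes were the 25 with the smallest adjusted p and the 5 with the largest fold in each direction, among those with a mean count of at least 50, a fold and statistic of 1 sign and no predicted name, up to 6 called members per list, or 2 of the highest mean where none passed, and 10 per test of opposite directions. Alternatives were other thresholds, a mean count minimum, adjustment over every gene, a fold minimum, division by the robust SD and 1 mismatch in a motif.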

Additional observations from a re-analysis of the deposited data

How the results depend on the processing

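Of 856 called genes, 369 passed at an adjusted p under 0.01 (277 rose and 92 fell) and 1343 under 0.1 (448 fell). Adjustment over all p-values present left 543 (398 and 145), a minimum of 1 on the absolute log2 fold left 360 (292 and 68), and division by the robust SD of 1.56 left 25 (20 and 5). All other counts of called genes stayed within 1.5 times. Of 112 list counts, 37 moved by more under 0.01, 22 under 0.1, 24 with adjustment over every gene and 3 with a mean count of at least 50. Of 223 named genes, 72 were lost under 0.01 and 46 with adjustment over every gene. No paired analysis was possible because only comparison tables were analysed here and irradiated and untreated libraries carry different tumour numbers. For the same reason no replicate could be left out. Depth is unknown.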

Other observations

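Several gene families outside the lists were counted in inflammatory monocytes after their values were seen, with no test. By comparison, 4.13% of all tested genes rose and 1.77% fell. In the authors' deposited table, 6 of 8 tested stefin and cystatin A cluster genes rose, including Cstdc4 (1.35), and 6 of 16 immunoglobulin genes were called as higher, including Iglv1 (3.46). Of these 6, Ighg1 (-0.06) and Ighg3 (-0.25) have folds below 0 beside positive Wald statistics in the authors' deposited table, so their direction is uncertain. Neutrophil markers and B cell markers rose in the same libraries, and their part in this was not tested. Of 30 actin and intermediate filament genes 10 fell and 0 rose, with -0.69 for Actg1, -0.59 for Tpm4 and -0.59 for Vim, which encodes vimentin, in the authors' deposited table. All 3 tested theta glutathione transferase genes rose, at 1.99 for Gstt1, 1.22 for Gstt2 and 1.08 for Gstt3 in the authors' deposited table, and each was also called as higher in the other subsets. Of 14 TNF superfamily ligand genes 4 rose, Tnfsf4, Tnfsf8 (2.01), Tnfsf10 (1.27), which encodes TRAIL, and Tnfsf15 (2.00), in the authors' deposited table. Of 21 TNF receptor family genes 1 rose, Tnfrsf9 (1.70), which encodes 4-1BB, in the authors' deposited table. That share is near the 4.13% of all tested genes that rose.

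Of 21 eicosanoid enzyme genes 6 rose, with 1.58 for Alox5, the 5-lipoxygenase gene, and 0.78 for Pla2g7 in the authors' deposited table. Among 20 cytosolic aminoacyl-tRNA synthetase genes 4 fell, namely Yars (-0.88), Vars (-0.71), Sars (-0.51) and Eprs (-0.46) in the authors' deposited table. Amino acid transporter genes rose in 4 and fell in 3 of 22 tested cases. Over all tested genes, 4.13% rose and 1.77% fell. RNA-binding protein genes fell in 4 of 20 cases for hnRNPs and 3 of 10 for SR splicing factors, with -0.60 for Hnrnpa1 and -0.43 for Srsf1 in the authors' deposited table. Of 80 ribosomal protein genes 3 fell, and of 26 histone genes 3 fell and 1 rose, Hist1h2bc (1.18), in the authors' deposited table. The Notch targets Hes1 (-1.12) and Nrarp (-1.76) fell, while 14 of the 17 tested Notch pathway genes were not called, in the authors' deposited table. Of 16 circadian clock genes only Per2 rose (1.83) in the authors' deposited table, where 4.13% of all tested genes rose. Saa3, an acute-phase gene, rose by 2.86 in the authors' deposited table, beside Saa1.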
